A study of Homo sapiens with 12 samples.

Results

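The genes described here are the 10 that encode the IRE1 and ATF6 branches of the unfolded protein response and the membrane-bound transcription factors related to ATF6. They are the IRE1 sensors ERN1 and ERN2, the IRE1 substrate XBP1, the sensors ATF6 and ATF6B, the proteases MBTPS1 and MBTPS2, and the factors CREB3, CREB3L1 and CREB3L2. They were chosen by name from knowledge of the pathway, with earlier results of these data known. All 10 were found among the 20015 genes of the count table, and all 10 passed the filter on low counts. RNA was sequenced from HT29 cells, a human colorectal adenocarcinoma line, in 4 groups of 3 libraries that the series calls biological replicates. All groups expressed the Cas9 nuclease and had received a lentivirus with a guide RNA, which was a non-targeting guide in the WT groups and a guide against QRICH1 in the QRICH1 KO groups. WT DMSO and QRICH1 KO DMSO cells received the solvent, and WT Tm and QRICH1 KO Tm cells received tunicamycin (Tm) at 0.3 µg/ml for 14 h. Whether the QRICH1 KO cells were a pool or a clone is not given in the sources used here.

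Tunicamycin blocks N-linked glycosylation, so that unfolded glycoproteins build up in the endoplasmic reticulum (ER). IRE1 then cuts an intron out of XBP1 mRNA in the cytoplasm, and the spliced mRNA encodes the active XBP1 transcription factor. ATF6 and the CREB3 family are made as ER membrane proteins, move to the Golgi, and are cut there by the site-1 and site-2 proteases (MBTPS1 and MBTPS2), which frees a fragment that enters the nucleus. All of this activation is by cleavage or splicing, whereas the libraries measured the total mRNA of each gene.

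Total counts ranged from 6856736 to 17861844 per library. Of 10 epithelial and colonic markers, 9 had counts in every library, with summed levels of 58200 to 99000 CPM (counts per 1000000 counts, scaled with TMM factors). KRT8 and KRT18 made up most of that sum. CDX1, a colonic transcription factor, reached at most 1 count. CDX2 (group means of 0.602 to 0.776 CPM) and CDH17 (at most 19 counts, too low to be tested) were also low. Of 13 markers of fibroblasts, endothelium and blood cells, 10 were too low to be tested, and lysozyme (LYZ) made up most of the list's summed level of 1840 to 2650 CPM. Over all tested genes, 11.1% were called lower with Tm in WT and 6.53% in QRICH1 KO. Of the markers, 8 of the first list and 3 of the second were tested. With Tm in WT, 2 markers of each list were lower (VIL1 -0.80 and KRT19 -0.64, CD14 -1.39 and LYZ -0.36 on the log2 scale), and KRT19 was also lower in QRICH1 KO (-0.61). Of these 5 calls, that of VIL1 held in every alternative, and the part of these markers in the results below was not tested. Most libraries had counts for 13124 to 14094 genes, but the libraries numbered 3 of the QRICH1 KO groups had more, 15340 with DMSO and 14813 with Tm. QRICH1 mRNA, the target of the guide, stood at 22.72, 31.12 and 34.97 CPM in WT DMSO libraries 1 to 3 and at 30.85, 31.05 and 25.69 in WT Tm. With the QRICH1 guide it stood at 23.34, 24.05 and 24.77 CPM without Tm and 26.81, 22.36 and 19.17 CPM with it. The genotypes overlapped, and the difference was not called under Tm (log2 fold change -0.36, edgeR quasi-likelihood adjusted p = 0.352) or under DMSO (-0.31, adjusted p = 0.577). Loss of the protein was not measured in these libraries, and a guide-made break need not lower the mRNA.

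The sequence that IRE1 acts on is shown first, because the counts describe XBP1 as a whole and cannot separate its forms. The GENCODE release 29 transcripts of XBP1 were searched for a stretch of 26 bases that is present in 1 form and absent from the other. This length and the bases at the cuts (C, any base, G) were set in advance. The stretch is at chr22:28796127-28796152 (hg38) on the minus strand, within the coding part of exon 4. The unspliced form is printed with the removed bases in capitals and 20 bases on each side, and the spliced form with the same flanks joined.
XBP1 unspliced: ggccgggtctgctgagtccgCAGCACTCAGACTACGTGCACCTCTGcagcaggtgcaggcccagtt
XBP1 spliced: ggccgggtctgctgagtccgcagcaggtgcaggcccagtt
Reads with and without these bases fall on the same gene and were summed in the deposited counts.

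Promoter windows from RefSeq (GRCh38.p14, 250 bases before to 50 bases after a start site) were found for 9 of the 10 genes, as 11 windows. Exact matches were sought on both strands for 4 motifs: the ER stress element bound by ATF6 (CCAAT and CCACG separated by 9 bases), the ER stress element II (ATTGG and CCACG separated by 1 base), the unfolded protein response element (TGACGTG followed by G or A) and the cAMP response element (TGACGTCA). The last 2 share their first bases. XBP1 held an ER stress element at positions -52 to -34 from the start, a motif found in 0.0769% of all 35116 windows, and CREB3L2 held a cAMP response element at -179 to -172, found in 1.85%. The other windows of the 10 genes, including those of ATF6, ERN1 and CREB3, held none of the 4 motifs. The ER stress element II was in 0.0541% of all windows and the unfolded protein response element in 1.18%. Both matching promoters are printed from -250 to -31 with the motif in capitals, because both genes rose with Tm in the counts. XBP1 is at chr22:28800600-28800819 and CREB3L2 at chr7:138002117-138002336, both on the minus strand.
XBP1 promoter: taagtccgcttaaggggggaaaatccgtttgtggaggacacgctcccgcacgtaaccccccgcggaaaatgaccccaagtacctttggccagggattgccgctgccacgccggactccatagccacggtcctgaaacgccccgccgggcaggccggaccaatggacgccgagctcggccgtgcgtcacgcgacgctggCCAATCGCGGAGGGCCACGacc
CREB3L2 promoter: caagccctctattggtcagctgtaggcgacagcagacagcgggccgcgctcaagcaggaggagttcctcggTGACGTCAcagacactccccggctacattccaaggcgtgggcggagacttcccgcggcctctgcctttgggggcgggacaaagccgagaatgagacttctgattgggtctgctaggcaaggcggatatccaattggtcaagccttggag
A match is only a description of these letters, and binding was not measured.

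In WT cells Tm raised the mRNA of 5 of the 10 genes and lowered none. ERN1, XBP1, ATF6, CREB3 and CREB3L2 passed the test, with folds from 2.15 to 3.59, and ERN2, ATF6B, MBTPS1, MBTPS2 and CREB3L1 did not. Over all 11323 tested genes, 12.6% were called higher and 11.1% lower at an adjusted p under 0.05, and the median log2 fold change was 0.64 for the 10 genes and -0.02 for all genes. In QRICH1 KO cells the same 5 genes were called higher and none lower, with folds from 1.69 to 3.42, beside 9.09% of tested genes higher and 6.53% lower. There the median was 0.54 for the 10 genes and 0.00 for all genes. In whole-culture RNA, more mRNA per cell and more cells that express the gene cannot be told apart. Each of the 5 calls held under all 11 alternatives run for WT and all 12 run for QRICH1 KO, which include leaving out each library in turn. The largest adjusted p among these was 0.000419 in WT and 0.00467 in QRICH1 KO, both for XBP1. All values below are edgeR quasi-likelihood log2 fold changes with Benjamini-Hochberg adjusted p-values over all tested genes, unless another tool is named.

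**Figure D1:**
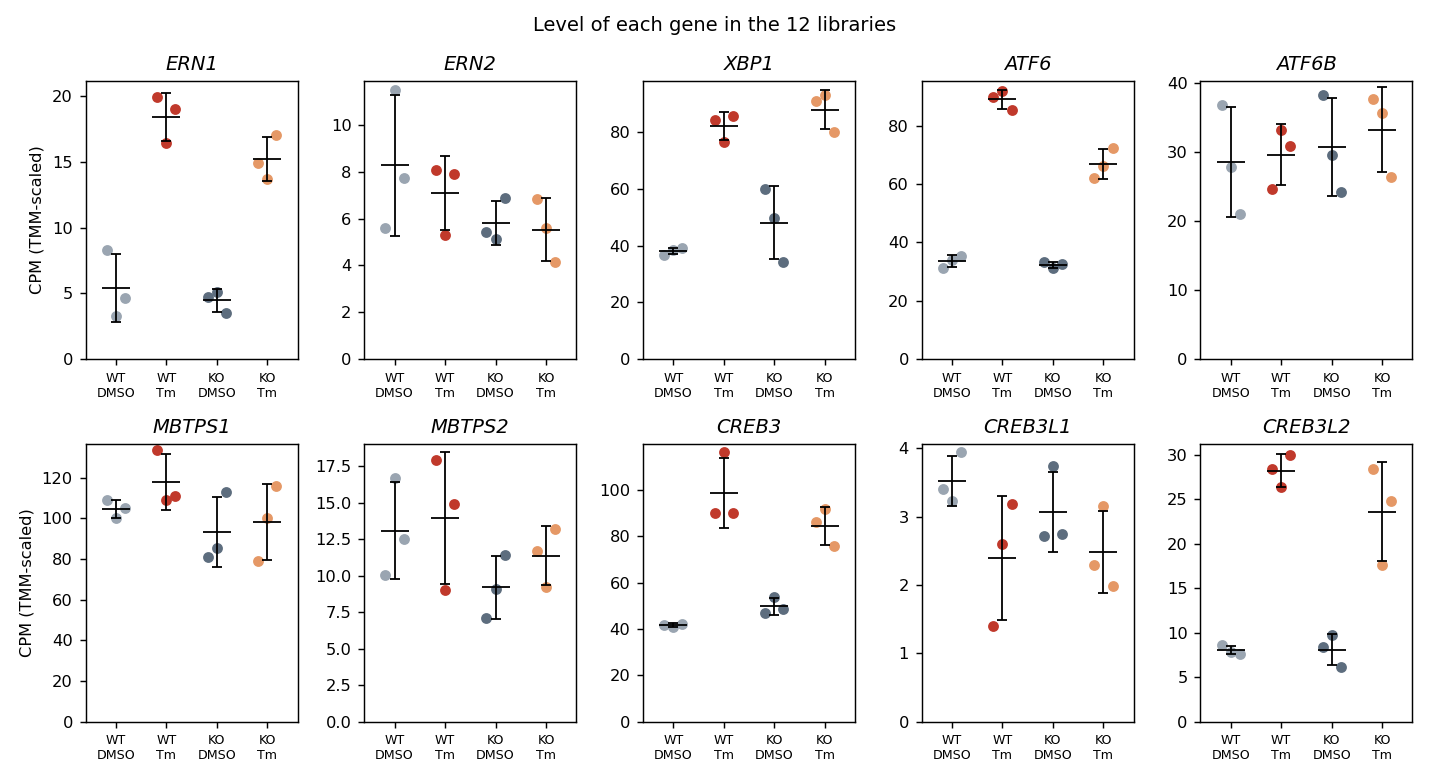
TMM-scaled CPM (y axes, each from 0) of the 10 genes in the 4 groups (x axes). Points are the 3 libraries of a group in order, horizontal marks are means and bars are SD (n = 3). For ERN1, XBP1, ATF6, CREB3 and CREB3L2 all Tm libraries lie above all DMSO libraries of the same genotype.

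ERN1 (chr17:64039142-64130819, minus strand, hg38) encodes IRE1 alpha, the kinase and endoribonuclease found in most cells. Its level was 8.30, 3.29 and 4.61 CPM in WT DMSO libraries 1 to 3 and 19.96, 16.42 and 19 CPM in WT Tm. In QRICH1 KO it was 4.75, 5.13 and 3.50 CPM with DMSO and 14.91, 13.70 and 17.03 CPM with Tm. The groups did not overlap by treatment in either genotype, and library 1 of WT DMSO was the highest of the untreated ones. ERN1 rose with Tm by 1.84 on the log2 scale in WT (SE 0.258, 3.59-fold, 95% interval 2.46 to 5.23, adjusted p = 3.35e-05), and its rise in QRICH1 KO was 1.77 (SE 0.253, 3.42-fold, 95% interval 2.36 to 4.94, adjusted p = 6.81e-05). Counts behind these values were 54 to 84 in DMSO libraries and 117 to 242 in Tm libraries.

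ERN2 (chr16:23690326-23713500, minus strand) encodes IRE1 beta, a paralog known from the epithelium of the gut and airway, above all from mucus-secreting cells. It stood at 5.58, 11.51 and 7.74 CPM in WT DMSO and at 8.08, 5.28 and 7.91 CPM in WT Tm. The QRICH1 KO libraries held 5.43, 5.13 and 6.88 CPM with DMSO and 6.82, 5.62 and 4.14 CPM with Tm. All 4 groups overlapped, and no change was called with Tm in WT (-0.26, 95% interval -0.84 to 0.31, adjusted p = 0.546) or with the QRICH1 guide (-0.07, 95% interval -0.66 to 0.51, adjusted p = 0.896). These intervals reach a fold of 1.24 in WT and 1.42 in QRICH1 KO on the upper side, both below the lower bounds for ERN1. Other markers of the secretory lineage were tested beside it: 5 of 10 passed the count filter, and 1 of these, AGR2, was called higher in each genotype. Over all tested genes, 12.6% were called higher in WT and 9.09% in QRICH1 KO, and no change of this list as a whole is claimed. AGR2, an ER protein disulfide isomerase, rose 43.9-fold in WT and 26.3-fold in QRICH1 KO, while the mucin MUC2 had mean levels of 1.09 to 2.49 CPM and CLCA1 reached at most 5 counts. Under Tm, AGR2 (-0.75, adjusted p = 0.00681) and the transcription factor SPDEF (-0.71, adjusted p = 0.0271) were lower in QRICH1 KO. They were 2 of the 5 tested markers, beside 0.76% of all tested genes called lower. The SPDEF call was lost without any 1 of the 3 QRICH1 KO Tm libraries and without library 1 or 2 of WT Tm. Without added stress SPDEF had a similar difference (-0.67, adjusted p = 0.118), with no overlap of the libraries, and AGR2 a difference of -0.01. ERN2 overlaps PLK1 on the opposite strand by 42 bases of exon, and the library chemistry does not mark strand (PLK1 had a log2 fold change of -0.44 with Tm in WT).

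XBP1 (chr22:28794555-28800597, minus strand) encodes the transcription factor made from the spliced mRNA printed above. Its level was 36.88, 38.49 and 39.14 CPM in WT DMSO and 84.46, 76.73 and 85.90 CPM in WT Tm. The QRICH1 KO libraries held 60.08, 49.84 and 34.40 CPM with DMSO and 91.07, 93.07 and 80.04 CPM with Tm. The untreated QRICH1 KO libraries were spread more widely than the untreated WT libraries, and all Tm libraries lay above all DMSO libraries. XBP1 rose by 1.11 in WT (SE 0.155, 2.15-fold, 95% interval 1.72 to 2.7, adjusted p = 3.27e-05), and its rise in QRICH1 KO was 0.87 (SE 0.151, 1.83-fold, 95% interval 1.47 to 2.28, adjusted p = 0.000579).

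ATF6 (chr1:161766294-161964070, plus strand) encodes the sensor ATF6 alpha, whose freed fragment activates ER chaperone genes. It stood at 31.30, 34.10 and 35.42 CPM in WT DMSO and at 89.66, 91.84 and 85.44 CPM in WT Tm. In QRICH1 KO it was 33.24, 31.26 and 32.59 CPM with DMSO and 61.88, 66.26 and 72.32 CPM with Tm. The untreated libraries of both genotypes overlapped, whereas every QRICH1 KO Tm library lay below every WT Tm library. ATF6 rose by 1.40 in WT (SE 0.108, 2.64-fold, 95% interval 2.26 to 3.09, adjusted p = 1.57e-08), and its rise in QRICH1 KO was 1.05 (SE 0.107, 2.06-fold, 95% interval 1.77 to 2.41, adjusted p = 1.12e-06).

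ATF6B (chr6:32115264-32128253, minus strand) encodes ATF6 beta, a paralog that is cut by the same proteases. Its level was 36.88, 27.83 and 21.06 CPM in WT DMSO and 24.66, 33.24 and 30.86 CPM in WT Tm. It was 38.32, 29.53 and 24.21 CPM in untreated QRICH1 KO cells and 37.76, 35.71 and 26.33 CPM in treated ones. The 4 groups overlapped, and the log2 fold change with Tm was 0.06 in WT (95% interval -0.37 to 0.50, adjusted p = 0.873), and 0.11 with the QRICH1 guide (95% interval -0.31 to 0.54, adjusted p = 0.765). It shares 71 of its 3629 exon bases with TNXB on the same strand.

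MBTPS1 (chr16:84053761-84116906, minus strand) encodes the site-1 protease, which makes the first cut, and MBTPS2 (chrX:21839636-21885424, plus strand) the site-2 protease, which cuts within the membrane. MBTPS1 stood at 108.86, 100.30 and 105.00 CPM in WT DMSO and 133.87, 109.24 and 111.13 in WT Tm. The QRICH1 KO libraries held 81.17, 85.67 and 112.91 CPM untreated and 78.86, 100.22 and 116.16 CPM with Tm. Its 3 WT Tm libraries lay above the 3 WT DMSO libraries, but by less than the test required (log2 fold change 0.18, 95% interval -0.13 to 0.48, adjusted p = 0.438), and the QRICH1 KO groups overlapped (0.08, adjusted p = 0.781). MBTPS2 was 10.07, 16.69 and 12.50 CPM in WT DMSO and 17.9, 9.02 and 14.90 in WT Tm. With the QRICH1 guide it was 7.12, 9.08 and 11.38 CPM untreated and 11.66, 9.25 and 13.21 CPM with Tm. These groups overlapped too, with log2 fold changes of 0.07 in WT (95% interval -0.46 to 0.60, adjusted p = 0.884), and 0.32 with the QRICH1 guide (95% interval -0.22 to 0.85, adjusted p = 0.45). MBTPS2 shares 1093 of its 8927 exon bases with YY2, a gene on the same strand, so reads there could come from either gene. YY2 itself held only 0.00 to 0.76 CPM in the libraries, and how shared reads were assigned is not given in the sources used here.

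CREB3 (chr9:35732335-35737004, plus strand), also called Luman, encodes a membrane-bound factor of the ER. Its level was 41.91, 40.62 and 42.19 CPM in WT DMSO and 89.83, 116.06 and 90.15 CPM in WT Tm. It was 46.80, 53.92 and 48.79 CPM in untreated QRICH1 KO cells and 85.92, 91.79 and 75.58 CPM in treated ones. The treatments did not overlap, and library 2 of WT Tm was the highest of the 12. CREB3 rose by 1.25 in WT (SE 0.124, 2.38-fold, 95% interval 1.98 to 2.85, adjusted p = 4.76e-07), and its rise in QRICH1 KO was 0.76 (SE 0.122, 1.69-fold, 95% interval 1.42 to 2.02, adjusted p = 0.000255). On the opposite strand its exons overlap those of GBA2 by 139 bases and of TLN1 by 61 of 1903, and neither neighbour was called with Tm in WT (GBA2 0.36, adjusted p = 0.11, and TLN1 -0.02).

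CREB3L2 (chr7:137874979-138002067, minus strand), also called BBF2H7, encodes a factor known for its part in secretion by cartilage cells. It stood at 8.57, 7.86 and 7.66 CPM in WT DMSO and at 28.37, 26.33 and 29.95 CPM in WT Tm. In QRICH1 KO it was 8.42, 9.70 and 6.19 CPM with DMSO and 28.40, 17.56 and 24.82 CPM with Tm. All Tm libraries lay above all DMSO libraries, and library 2 of QRICH1 KO Tm was the lowest treated one. CREB3L2 rose by 1.82 in WT (SE 0.196, 3.52-fold, 95% interval 2.65 to 4.68, adjusted p = 1.4e-06), and its rise in QRICH1 KO was 1.55 (SE 0.191, 2.93-fold, 95% interval 2.22 to 3.86, adjusted p = 1.23e-05).

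CREB3L1 (chr11:46277661-46321422, plus strand), also called OASIS, encodes a factor known from bone-forming cells and astrocytes. It held 3.40, 3.23 and 3.94 CPM in WT DMSO and 1.40, 2.60 and 3.19 CPM in WT Tm. The values were 2.71, 3.74 and 2.75 CPM in untreated QRICH1 KO cells and 2.30, 3.16 and 1.99 CPM in treated ones. The WT Tm libraries lay below the WT DMSO libraries, but the difference was not called (log2 fold change -0.59, 95% interval -1.30 to 0.11, adjusted p = 0.225), and in QRICH1 KO the groups overlapped (-0.32, adjusted p = 0.573). Each library held only 17 to 54 CREB3L1 counts, so that a fall to 0.405 of the untreated level stayed within the WT interval.

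The third ER sensor, PERK (EIF2AK3), and the remaining CREB3 relatives are given for comparison. EIF2AK3 was 1.91, 2.68 and 2.16 CPM in WT DMSO and 9.49, 6.01 and 8.82 CPM in WT Tm, without overlap. It rose 3.51-fold in WT (log2 fold change 1.81, adjusted p = 0.000315) and 3.38-fold in QRICH1 KO (1.76, adjusted p = 0.00073). CREB3L4 was not called in either genotype (0.26 in WT, adjusted p = 0.482), and CREB3L3, known from liver and intestine, had 2 counts in a single library and was not tested.

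**Figure D2:**
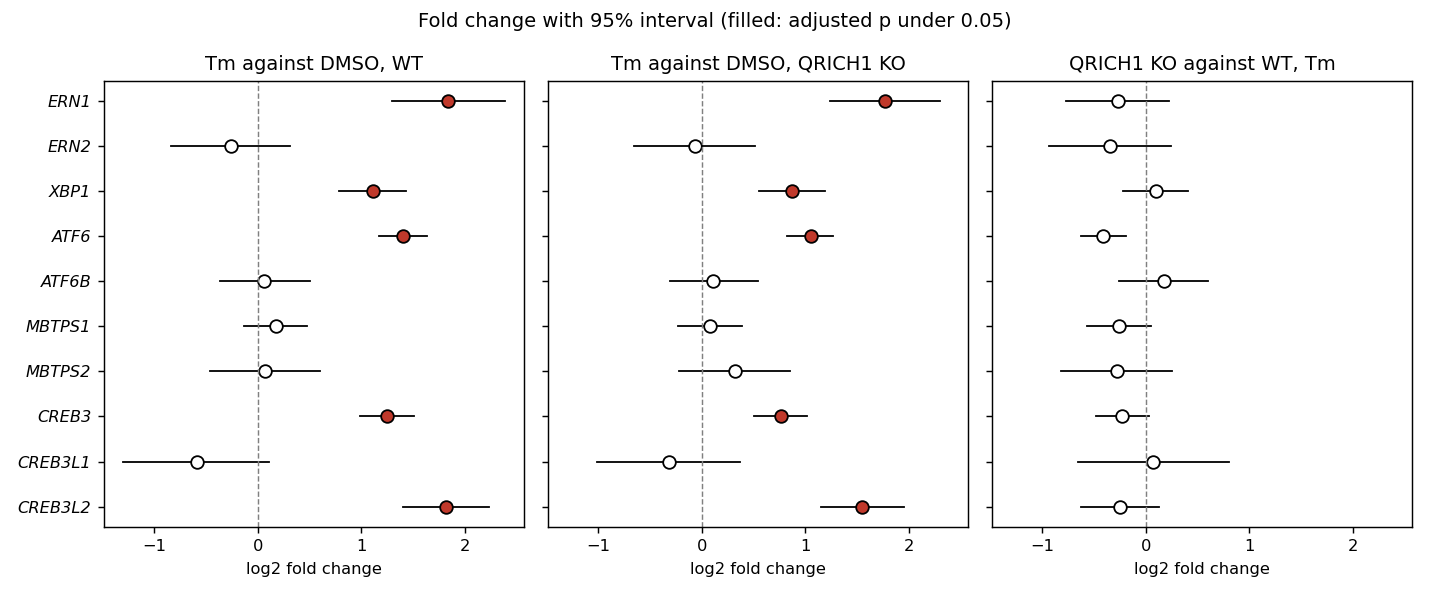
Log2 fold change (x axes) of the 10 genes (y axis) for the Tm response of WT, the Tm response of QRICH1 KO, and the genotypes under Tm. Bars are 95% intervals, and filled points had an adjusted p under 0.05: 5 genes in each Tm comparison and 0 in the genotype comparison.

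The related genes thus had unlike values side by side, and their ratios within a library were computed as a description with a pseudocount of 0.5 counts. The pairs were chosen after their values had been seen, so the permutation test run on the ratios is void and supports nothing here. The log2 ratio of ERN1 to ERN2 was 0.57, -1.80 and -0.74 in WT DMSO and 1.30, 1.63 and 1.26 in WT Tm. With the QRICH1 guide it was -0.19, 0.00 and -0.97 untreated and 1.12, 1.28 and 2.03 treated. Every Tm library had a higher ratio than every DMSO library of its genotype. The log2 ratio of ATF6 to ATF6B went from a mean of 0.27 (SD 0.49, n = 3) in WT DMSO to 1.60 (SD 0.23) in WT Tm, and from 0.10 (SD 0.32) to 1.02 (SD 0.39) in QRICH1 KO. For CREB3L2 to CREB3L1 it went from 1.18 (SD 0.20) to 3.61 (SD 0.60) in WT and from 1.38 (SD 0.23) to 3.22 (SD 0.67) in QRICH1 KO. In these pairs too, the treatments did not overlap within a genotype.

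**Figure D3:**
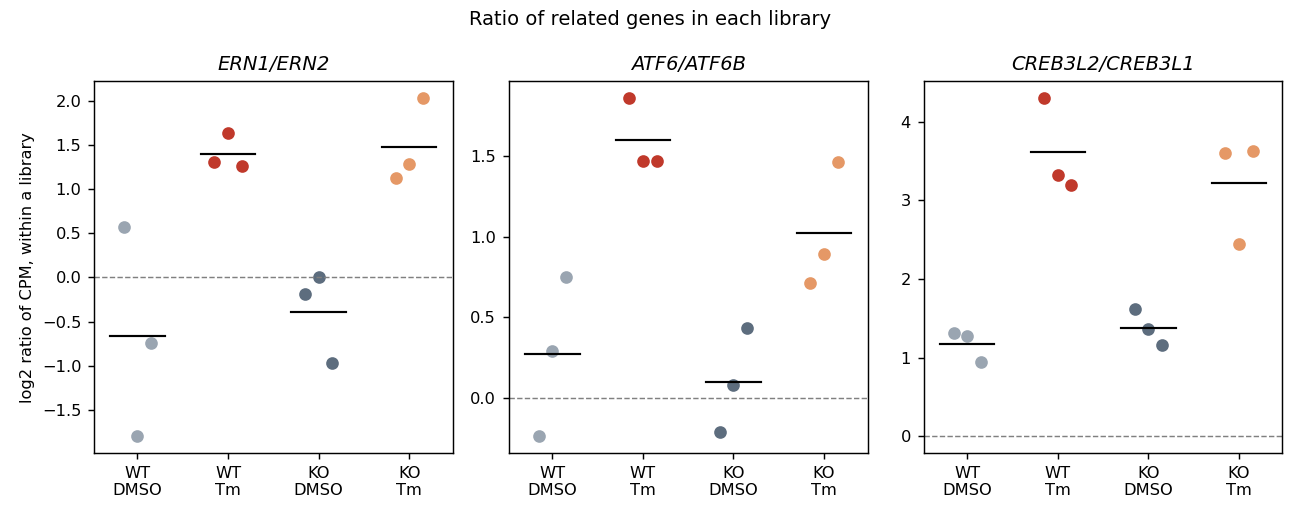
Log2 ratio of CPM within each library (y axes) for ERN1 to ERN2, ATF6 to ATF6B and CREB3L2 to CREB3L1 in the 4 groups (x axes). Points are libraries and lines are means of 3. In each panel the Tm libraries lie above the DMSO libraries of the same genotype.

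To compare levels between genes, CPM were divided by the length of the merged exons in kilobases (CPM per kb). In WT DMSO the order was CREB3 with 21.8, XBP1 with 12.6, MBTPS1 with 10.2, ATF6B with 7.88, ATF6 with 4.26, ERN2 with 1.66, MBTPS2 with 1.47, CREB3L2 with 0.914, CREB3L1 with 0.873 and ERN1 with 0.497 CPM per kb. The ranges over libraries of ERN2 and MBTPS2, and of CREB3L2 and CREB3L1, overlapped. So did those of MBTPS1 and ATF6B, although only narrowly. With the longest transcript as the length, MBTPS1 was the highest and 6 other genes moved by 1 place. The level of ERN1 per kb was below that of ERN2 in every WT DMSO library (0.303 to 0.764 against 1.12 to 2.3). In WT Tm the ranges overlapped (1.51 to 1.84 against 1.06 to 1.62), although ERN1 was above ERN2 within each library (means 1.7 and 1.42). ATF6 lay below ATF6B in WT DMSO (3.97 to 4.49 against 5.8 to 10.2 CPM per kb) and above it in WT Tm (10.8 to 11.6 against 6.8 to 9.16), although by the longest transcript the WT Tm means were close (11.9 and 11.3). In QRICH1 KO Tm the mean of ATF6 was still below that of ATF6B and their ranges overlapped (7.84 to 9.17 against 7.26 to 10.4 CPM per kb). These levels depend on which exons are used, which gene counts do not show.

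**Figure D4:**
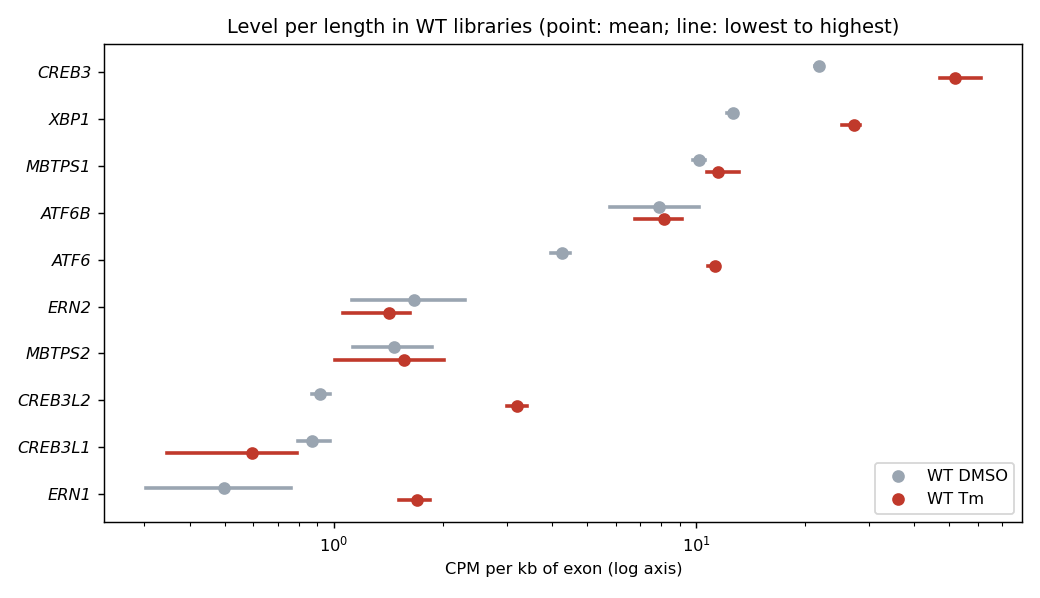
Level per length (x axis, CPM per kb of merged exon, log axis) of the 10 genes (y axis) in WT DMSO and WT Tm. Points are means of 3 libraries and lines run from the lowest to the highest library. ERN1 moves from the lowest place in WT DMSO to a mean above that of ERN2 in WT Tm, where their ranges overlap.

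The QRICH1 guide was compared with the non-targeting guide next. Under Tm, 0 of the 10 genes were called by edgeR, where 0.406% of all tested genes were called higher and 0.76% lower. At an unadjusted p under 0.05, 1 of the 10 and 1513 of all 11323 genes would pass. The gene was ATF6, which was 1.33-fold lower in QRICH1 KO Tm (log2 fold change -0.41, SE 0.105, 95% interval -0.63 to -0.19, adjusted p = 0.0665) with no overlap of the libraries. DESeq2 called it (log2 fold change -0.44, adjusted p = 0.00543), and over the 12 alternatives its adjusted p ranged from 0.00543 to 0.245 with the same sign in each. The other 9 genes had log2 fold changes from -0.35 (ERN2) to 0.17 (ATF6B), 7 of the 10 genes were below 0, and the median was -0.26 beside 0.01 for all genes. XBP1, at 0.10 (95% interval -0.22 to 0.41), was among the 3 genes above 0.

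Without added stress, 0 of the 10 genes were called between the genotypes, where 0.0177% of tested genes were called higher and 0.0795% lower. At an unadjusted p under 0.05, 3 of the 10 and 1027 of all tested genes would pass. They were XBP1 (log2 fold change 0.33, adjusted p = 0.536), CREB3 (0.26, adjusted p = 0.545) and MBTPS2 (-0.53, adjusted p = 0.548). DESeq2 called none of the 10 here either. Below 0 were 6 of the 10 genes, with a median of -0.11 beside 0.00 for all genes.

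The difference between the Tm responses of the genotypes was tested by the interaction, the response in QRICH1 KO less that in WT. edgeR called 0 of the 10 genes and 0% of all tested genes in either direction, and 774 genes had an unadjusted p under 0.05. Among them were CREB3 (difference -0.49 on the log2 scale, adjusted p = 0.538) and ATF6 (-0.36, adjusted p = 0.677). DESeq2 called 9 genes higher and 37 lower over the whole table, but 0 of the 10. For ERN1 the difference was -0.07, for CREB3L2 -0.27 and for XBP1 -0.24. The comparisons share libraries, so their values are given side by side and not correlated.

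Genes known as targets of these factors were counted from lists written from textbook knowledge, but with earlier results of these data known. The counts are therefore a description and no outside support. Some genes stand in more than 1 list, and the ATF6 list includes XBP1, 1 of the 10 genes. Over all tested genes, 12.6% were called higher with Tm in WT and 9.09% in QRICH1 KO. All 24 targets of spliced XBP1, which act in ER import, folding, degradation and export, were higher with Tm in WT and in QRICH1 KO, with median log2 fold changes of 2.28 and 1.85. The largest were those of DNAJB9, a co-chaperone (4.13 in WT and 3.61 in QRICH1 KO), SEC24D, a coat protein of ER export vesicles (3.95 and 3.76), and DNAJC3, a co-chaperone (3.59 and 3.10). All 13 tested targets of ATF6 were also higher in both genotypes, with medians of 3.90 and 2.86. Among them, HERPUD1, a part of ER-associated degradation, rose 31.7-fold in WT and 22.9-fold in QRICH1 KO, and the chaperone HSPA5 rose 25.8-fold and 14.6-fold. DERL3, the remaining ATF6 target, had at most 4 counts in a library. Of 5 tested targets of the CREB3 family, 4 were higher in each genotype, with medians of 1.98 and 1.59, and the collagen genes COL1A1 and COL1A2 were too low to test.

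Genes of the same lists were then compared between the genotypes under Tm, where 0.406% of all tested genes were called higher and 0.76% lower. Of the 24 XBP1 targets, 6 were called lower and 0 higher, and all 24 log2 fold changes were below 0, with a median of -0.42. TRAM1 (-0.72, adjusted p = 0.00484), SSR1 (-0.63, adjusted p = 0.00828) and SERP1 (-0.62, adjusted p = 0.00494), which serve protein import into the ER, changed the most. Of the 13 ATF6 targets, 9 were called lower and 0 higher, with a median of -0.61, led by the chaperones HYOU1 (-0.78, adjusted p = 0.0361), HSP90B1 (-0.77, adjusted p = 0.00193) and HSPA5 (-0.76, adjusted p = 0.00484). XBP1 itself was the ATF6 target above 0. Of the 5 CREB3 family targets, 3 were called lower, namely HERPUD1 (-0.57, adjusted p = 0.0118), ARF4 (-0.54, adjusted p = 0.0143) and KDELR3 (-0.51, adjusted p = 0.0346). The median of all genes was 0.01. The lists' interaction medians were -0.46, -0.77 and -0.20, with 0 genes called.

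These counts depended on single libraries. The number of all genes called lower fell as well, from 86 to between 35 and 49 without any 1 of the 6 Tm libraries. The XBP1 targets called lower fell from 6 to 3 without WT Tm library 1, without WT Tm library 3, without QRICH1 KO Tm library 1 or without QRICH1 KO Tm library 3, and to 2 without QRICH1 KO Tm library 2. The ATF6 targets fell from 9 to 3 without WT Tm library 2, and to 4 without QRICH1 KO Tm library 2 or library 3. The CREB3 family targets fell from 3 to 1 without WT Tm library 2 or without any of the 3 QRICH1 KO Tm libraries. HSP90B1, HSPA5, PDIA4, SERP1 and TRAM1 were called under all 12 alternatives. Of the other genes named, SSR1 lost its call without QRICH1 KO Tm library 2, HYOU1 without library 1 or 2 of either Tm group, HERPUD1 without WT Tm library 2 or QRICH1 KO Tm library 3, ARF4 without QRICH1 KO Tm library 1 or 2, and KDELR3 without any 1 of the 6 Tm libraries. Without added stress none of these genes was called between the genotypes, and the list medians were 0.01, 0.13 and -0.15.

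**Figure D5:**
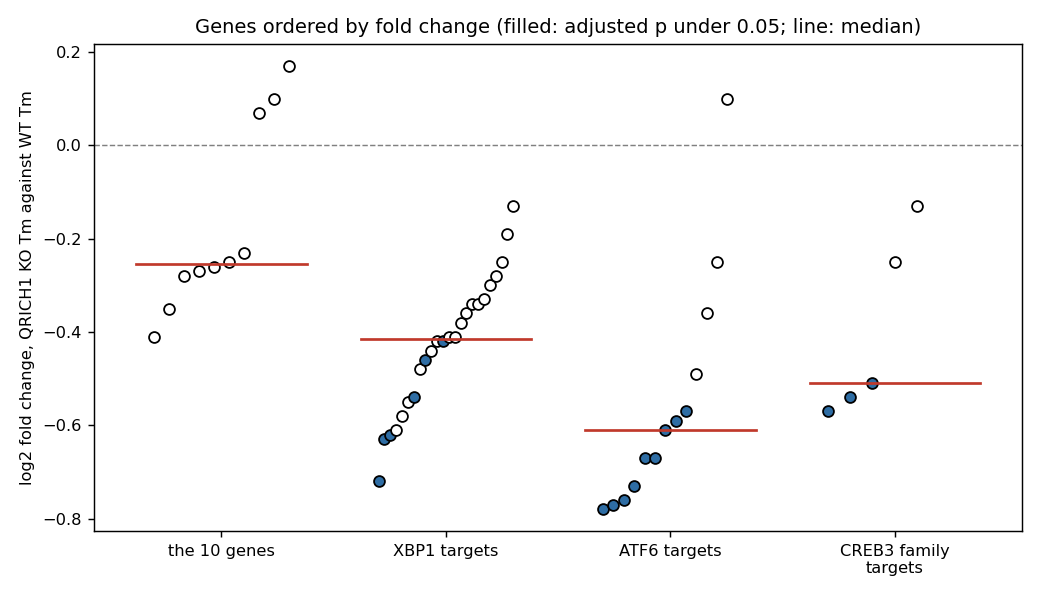
Log2 fold change of QRICH1 KO Tm against WT Tm (y axis) for the 10 genes and for the targets of XBP1, ATF6 and the CREB3 family (x axis). Points are genes in order of value, filled where the adjusted p was under 0.05, and red lines are medians. No point is filled among the 10 genes, and 6, 9 and 3 are filled among the targets.

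The lists that follow are given beside the shares of all tested genes, 12.6% called higher and 11.1% lower with Tm in WT. In QRICH1 KO the shares were 9.09% and 6.53%. Of 13 proteins known to bind, restrain, degrade or signal from IRE1, 7 were higher with Tm in each genotype. They included HSPA5, which binds the luminal part of the sensors, DNAJB9 and SEL1L, a part of the degradation complex that removes IRE1 (9.98-fold in WT and 7.13-fold in QRICH1 KO). TRAF2, an adaptor for kinase signalling from IRE1, was the single gene called lower in WT (-0.46, adjusted p = 0.0271), a call lost without WT DMSO library 1, WT Tm library 1 or WT Tm library 3. A list of the tRNA ligase complex that joins the XBP1 exons after IRE1 cleavage, together with its cofactors, had 4 of 8 genes called higher in WT and 2 in QRICH1 KO. The largest changes were those of ZBTB8OS, the cofactor archease (0.89 in WT and 0.74 in QRICH1 KO), and RTCA, an RNA cyclase that is not a subunit (0.73 and 0.50). Of the 6 subunits of the complex, RTRAF (0.48) and FAM98A (0.39) were called higher in WT and 0 in QRICH1 KO. The list's count in WT was 2 without WT DMSO library 3, where both subunit calls were lost, and that in QRICH1 KO was 1 without both libraries numbered 3. RTRAF also lost its call without WT DMSO library 2 or WT Tm library 2, and FAM98A without WT DMSO library 1 or WT Tm library 1 or 3. The ligase itself, RTCB, was not called in either genotype.

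IRE1 can also degrade other mRNAs, and 6 of 10 known substrates of this decay passed the count filter. Of these 6, 1 was called higher and 2 lower in WT, and 0 and 1 in QRICH1 KO. The shares of all tested genes were 12.6% and 11.1% in WT and 9.09% and 6.53% in QRICH1 KO. DGAT2, an enzyme of triglyceride synthesis, fell by 1.92 on the log2 scale in WT (adjusted p = 2.13e-05) and, with the QRICH1 guide, fell by 2.08 (adjusted p = 1.14e-05). The clock gene PER1 went the other way in WT (1.54, adjusted p = 0.000761). TAPBP was lower in WT (-0.31, adjusted p = 0.0349), a call lost without any of the WT DMSO libraries and without WT Tm library 1 or library 3. The median of the 6 was -0.22 in WT and 0.05 in QRICH1 KO. The substrate BLOC1S1 was not called in either genotype, with log2 fold changes of 0.18 (SE 0.712) in WT and 0.33 (SE 0.634) in QRICH1 KO. Its group means were only 0.669 to 0.979 CPM, so a large change could have been missed.

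Among proteins that retain, reduce, degrade or assist ATF6, listed together with its DNA-binding partners, 10 of 11 were tested and 3 rose in each genotype. They were WFS1, the ER membrane protein wolframin (2.72-fold in WT and 2.02-fold in QRICH1 KO), NUCB1 (2.65-fold and 1.8-fold) and the disulfide isomerase PDIA5 (2.61-fold and 2.05-fold). GTF2I, listed as a DNA-binding partner, was lower in both (-0.71 with the non-targeting guide, adjusted p = 0.000398, and -0.59 with the QRICH1 guide, adjusted p = 0.00307). The NF-Y subunits NFYA, NFYB and NFYC, which bind the CCAAT part of the ER stress element, were not called. Of 8 tested clients and cofactors of the site-1 and site-2 proteases, INSIG2 was higher (0.89 in WT and 0.79 in QRICH1 KO), and INSIG1 (-0.88 and -0.62) and SREBF2 (-0.36 and -0.37) were lower. Over all tested genes 12.6% were called higher and 11.1% lower in WT, and 9.09% and 6.53% in QRICH1 KO. With so few genes, no change of the list as a whole is claimed. The WT call of SREBF2 was lost without library 1 or 2 of WT DMSO or library 1 or 3 of WT Tm. Its QRICH1 KO call was lost without library 1 or 2 of QRICH1 KO DMSO or library 1 or 3 of QRICH1 KO Tm, and that of INSIG2 without library 1 or 2 of QRICH1 KO DMSO or library 2 or 3 of QRICH1 KO Tm. The QRICH1 KO calls of INSIG1 and SREBF2 were lost without both libraries numbered 3.

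Genes with the most similar pattern over the 12 libraries were sought among 6950 genes with a mean of at least 10 CPM, as a description. By Pearson correlation of log2 CPM, those nearest to ATF6 were COPB1 (0.996), TAX1BP1 (0.996) and OSTC (0.995). For CREB3L2 they were FICD (0.976), DDIT3 (0.976) and DERL2 (0.975), and for ERN1 SIL1 (0.971), CRELD1 (0.970) and ARF4 (0.963). Those for XBP1 were MZF1 (0.969), GPT2 (0.967) and ANXA5 (0.964). The libraries fall into treated and untreated ones, and that difference is part of each of these values.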

How the data were processed

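RNA of 12 HT29 libraries was read by a modified Smart-seq2 and Nextera XT protocol, per the labels' protocols. The authors deposited whole-number read counts per gene, not normalized. Trimmomatic, STAR, DESeq2 and the build hg38 are named in the submitters' processing notes, without versions, and the sources used here name no counting tool or annotation. Gene positions and lengths came from GENCODE release 29 (19954 of 20015 gene IDs matched).

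Counts were tested with edgeR 4.0.16 in R 4.3.3 (TMM factors, filterByExpr with a minimum count of 10, 11323 genes, quasi-likelihood model of 4 group means over all 12 libraries), called at a two-sided Benjamini-Hochberg adjusted p under 0.05. The script was tested on simulated data. The limit that a count of 0 allows, 3 counts, was 0.168 to 0.4375 CPM and covers counting error only, as PCR copies are not independent molecules. Replicates differed by more than sampling noise (chi-square per degree of freedom at least 8.64). Alternatives were DESeq2 1.42.0, RLE factors, no count filter, a replicate block, only the groups compared, and each library left out. Leaving out both libraries 3 of QRICH1 KO was added after the data were seen.

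The 10 genes and all gene lists were chosen with earlier results of these data known. Named from each list were up to 3 called genes with the largest absolute log2 fold change in a comparison. A few others (such as TRAF2, GTF2I, RTCB, BLOC1S1, KDELR3 and the NF-Y subunits, PLK1, GBA2 and TLN1) were named after their values were seen. No protein sequences are given.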

Additional observations from a re-analysis of the deposited data

How the results depend on the processing

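The genes called higher and those called lower among the 10 were counted separately in every comparison and alternative, which gave 128 counts. The edgeR count was 5 for genes called higher with Tm in each genotype and 0 for every other comparison and direction. Most of the 128 counts were therefore set against 0. The count equalled that of the edgeR result, or lay within 1.5 times of it, in 127 of the 128. The exception was DESeq2, which called 1 of the 10 (ATF6) lower in QRICH1 KO than in WT under Tm, where edgeR called 0. In that comparison DESeq2 called 14 XBP1 targets lower and the fit with no count filter 11, where the main count was 6. Leaving out each library in turn gave 2 to 4 XBP1 targets, 3 to 7 ATF6 targets and 1 to 2 CREB3 family targets lower.

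The same replicate numbers occur in all groups. Deviations of same-numbered libraries from their group means had Pearson r of -0.19 to 0.27 over 18 pairs. Over 36 pairs of different numbers r was -0.24 to 0.23. Between QRICH1 KO DMSO and QRICH1 KO Tm, however, libraries 1, 2 and 3 had r of 0.21, 0.00 and 0.27 with their same-numbered library. Pairs of different numbers there had r of -0.24 to 0.04, so some shared deviation by number within QRICH1 KO is possible and was not tested. With the replicate block 5 of the 10 genes were again called higher with Tm in each genotype and 0 between genotypes.

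Over all genes, the number called lower with Tm in QRICH1 KO was 739, and 389 to 439 without library 1 or 2 of QRICH1 KO DMSO or library 2 or 3 of QRICH1 KO Tm. Between genotypes under Tm, 46 genes were higher and 86 lower by edgeR, 87 and 203 by DESeq2, 126 and 153 without the count filter, and 13 to 29 and 35 to 49 with 1 of the 6 libraries left out. Under DMSO 2 were higher and 9 lower by edgeR, 23 and 36 by DESeq2, and 76 and 62 without the filter, with 26 higher without library 3 of QRICH1 KO DMSO and 3 lower without library 2 of WT DMSO. For the interaction, 0 and 0 became 9 and 37 by DESeq2 and 12 and 32 without the filter, and 4 were lower without library 3 of WT DMSO. The causes were not tested. The common biological coefficient of variation was 0.155. CREB3L1, with 17 to 54 counts per library, and ERN2, with 41 to 189, had the widest relative counting error of the 10 genes beside ERN1, with 54 to 242.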
